A study of Mus musculus with 26 samples.

Results

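The genes described here are 7 members and partners of the human silencing hub (HUSH) complex, Tasor, Mphosph8, Pphln1, Tasor2, Setdb1, Trim28 and Morc2a, taken by symbol from the 56941 genes of the deposited tables. RNA was sequenced from motor neuron spheroids of HBG3, a mouse embryonic stem cell line with a GFP reporter under the motor neuron promoter HB9, given as 1 line from heterozygous blastocysts. All groups shared expansion on a feeder layer, differentiation with retinoic acid and purmorphamine, ciliary and glial derived neurotrophic factor from day 5, and a fibrin platform from about day 8. The 26 libraries fall into 5 groups. Spheroids on a silicone array with magnets were moved at 4 Hz for 30 min each day (actuated array, n = 4) or sat on the same kind of array without movement (static array, n = 4). The others were labelled high intensity (n = 6), low intensity (n = 6) and biochemical control (n = 6). The design text describes medium taken from optogenetic muscle with or without light stimulation, but its sample names cannot be matched to the intensity labels, so these groups are called by their intensity. That both had such medium and the controls had none is an assumption.

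HUSH silences transposons, integrated viral DNA and long intronless or repeat-derived genes. Tasor is the scaffold that joins Mphosph8, whose chromodomain binds trimethylated lysine 9 of histone H3, to Pphln1, which binds nascent RNA. Silencing needs Setdb1, the methyltransferase that writes the mark, and Morc2a, a DNA-binding ATPase that compacts chromatin. Trim28 is the co-repressor through which zinc finger proteins bring in Setdb1, and Tasor2 is a paralog of Tasor found in an alternative assembly. In neurons the machinery is known for keeping clustered protocadherins and retrotransposons in check.

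Total counts per library lay between 1536 and 13162635. The results rest on 21 deeper libraries, each above 1000000 counts in protein-coding genes (5 control, 4 high-intensity, 5 low-intensity, 4 actuated and 3 static). The array libraries were deeper (7269276 to 13162635 counts) than the rest (1551334 to 3971348). All 7 genes passed the filter on low counts, with 47 to 1938 counts per gene and deeper library. The motor neuron marker list had counts for 7 of 7 genes in every group, with a summed level of 70.5 to 162 CPM (normalised read counts scaled to 1000000 per library with the TMM method). Of the pluripotency markers, none of the 4 exceeded a summed 7.57 CPM in a library, while 6 of 6 fibroblast and feeder markers had counts in each group.

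The promoters of Tasor, Mphosph8 and Setdb1 are shown because these genes sat on opposite sides of the difference between the intensity groups: Tasor and Setdb1 were higher at high intensity and Mphosph8 was not. The windows run from 250 bases before to 50 bases after the RefSeq start (GRCm38.p6) and read 5′ to 3′ along the gene. They are chr14:27428584-27428883 on the + strand for Tasor, chr14:56667998-56668297 on the + strand for Mphosph8 and chr3:95357153-95357452 on the - strand for Setdb1. Capitals mark matches, on either strand, to the GC box GGGCGG, the CCAAT box CCAAT and the ETS core CCGGAA.
Tasor: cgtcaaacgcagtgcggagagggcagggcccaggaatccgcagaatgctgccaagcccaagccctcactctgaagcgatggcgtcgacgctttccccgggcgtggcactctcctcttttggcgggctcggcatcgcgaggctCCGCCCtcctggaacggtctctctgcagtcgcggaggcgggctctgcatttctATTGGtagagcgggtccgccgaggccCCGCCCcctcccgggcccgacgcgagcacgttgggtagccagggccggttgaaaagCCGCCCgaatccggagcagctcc
Mphosph8: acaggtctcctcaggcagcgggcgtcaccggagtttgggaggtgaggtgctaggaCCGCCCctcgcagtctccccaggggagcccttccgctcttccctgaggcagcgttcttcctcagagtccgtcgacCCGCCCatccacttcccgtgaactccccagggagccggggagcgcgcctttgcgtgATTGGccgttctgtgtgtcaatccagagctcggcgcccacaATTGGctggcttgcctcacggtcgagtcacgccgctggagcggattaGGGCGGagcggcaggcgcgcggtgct
Setdb1: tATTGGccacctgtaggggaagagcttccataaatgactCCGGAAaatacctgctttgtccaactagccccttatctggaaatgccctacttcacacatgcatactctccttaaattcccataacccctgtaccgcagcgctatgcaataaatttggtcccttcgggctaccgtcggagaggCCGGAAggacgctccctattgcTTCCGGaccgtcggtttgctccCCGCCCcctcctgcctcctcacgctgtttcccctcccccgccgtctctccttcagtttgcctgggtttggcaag
The promoter of Tasor held 3 GC boxes and 1 CCAAT box, that of Mphosph8 3 and 2, and that of Setdb1 1 of each plus 3 ETS cores. Over the 7 genes (the first listed start of each), GGGCGG was found in 5 windows and in 35.7% of all 32851 windows of 300 bases. CCAAT was found in 5 of 7 and in 37.4% of all, and CCGGAA in 2 of 7, Pphln1 and Setdb1, and in 14.9% of all. The TATA box TATAAA was found in 0 of 7 and in 13.6% of all. CpG counts in these 7 windows ran from 15 in Setdb1 to 53 in Pphln1, beside a median of 7 over all windows. Tasor had 32 and Mphosph8 28, at the 90.5th and 85.8th percentiles of all windows. Setdb1 stood lower, at the 65.4th percentile. None of the windows held the CRE palindrome TGACGTCA (1.79% of all) or the YY1-type motif AAGATGGCG (1.4%).

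Per transcript length, Trim28 was the most abundant of the 7 genes. In TPM, a unit that divides counts by transcript length and so lets levels of different genes be set side by side, its mean over the 21 deeper libraries was 109, and it ranked first in 20 of them. Mphosph8 (mean TPM 42.5) and Pphln1 (39.4) came next, and each was among the first 3 in 20 libraries. Morc2a (18.8) and Setdb1 (13.7) followed, and the scaffolds Tasor (10.9) and Tasor2 (9.63) had the lowest means, each among the last 2 in 19 libraries. Tasor thus stood at the 43.9th percentile and Trim28 at the 93.7th percentile of 13013 protein-coding genes with a mean TPM of at least 1. Neighbours in this order overlapped between libraries: Mphosph8 ranged from 18.7 to 92.5 TPM and Pphln1 from 10.8 to 58.7 TPM. Tasor ranged from 6.74 to 19.4 TPM, and Tasor2 from 5.26 to 15.4 TPM. The genes sat on 6 chromosomes, so that only Tasor (chr14:27428834-27483555, + strand, GRCm38) and Mphosph8 (chr14:56668248-56697430, + strand) shared one.

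**Figure D1:**
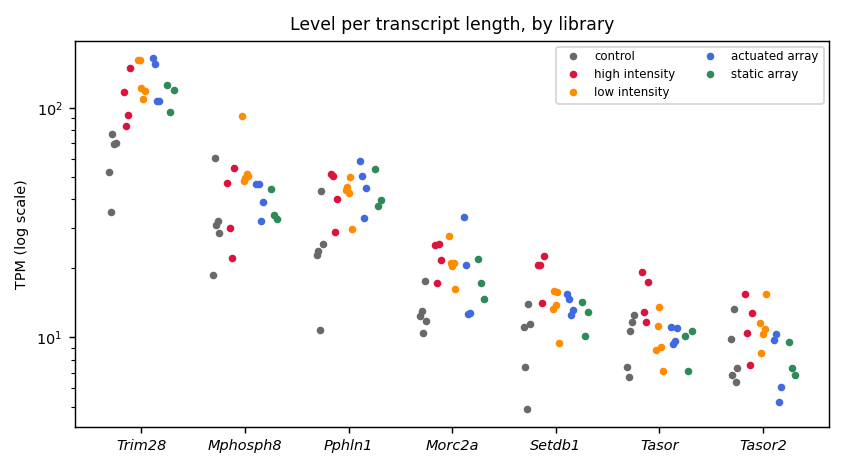
TPM of each gene (log axis) in each of the 21 deeper libraries, coloured by group. Trim28 lies above the other genes in 20 libraries, and Tasor, Tasor2 and Setdb1 overlap at the low end; groups are not comparable here, since RNA that is not protein-coding took 55.5% to 75.9% of TPM in the controls.

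TPM is not used to set one group against another. Genes that are not protein-coding took 55.5% to 75.9% of TPM in the controls and 33.1% to 59.9% in the other groups, which leaves a smaller share to protein-coding genes in the controls. Levels between groups are therefore given as TMM-scaled CPM, in which the median log2 difference over all 14730 genes fitted lay between -0.01 and 0.01 in each comparison.

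Tasor, the scaffold of HUSH, was high in controls and at high intensity and low in the 3 other groups. Its normalised count in control replicates 1, 2, 3, 5 and 6 was 103.8, 74.6, 92.3, 96.4 and 102.3 CPM (mean 93.9 ± 11.7, SD, n = 5). High-intensity replicates 1, 2, 3 and 6 had 104.2, 86.8, 99.3 and 83.5 CPM (93.4 ± 9.9, SD, n = 4). Low-intensity replicates 1 to 5 had 49.5, 57.7, 66.4, 48.0 and 51.7 CPM (54.7 ± 7.52, SD, n = 5). Controls and the high-intensity group overlapped, and every low-intensity library lay below both. On the actuated array the 4 libraries had 57.8, 52.0, 69.6 and 72.5 CPM (63.0 ± 9.71, SD, n = 4), and on the static array replicates 1, 2 and 4 had 55.2, 50.9 and 73.6 CPM (59.9 ± 12.1, SD, n = 3). Both array groups overlapped the low-intensity group. In bulk RNA, fewer cells of a type and less RNA per cell cannot be told apart.

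The difference of Tasor between high and low intensity was 0.77 on the log2 scale (SE 0.15), a 1.71-fold level. Low intensity against control gave -0.78 (SE 0.14) and high intensity against control -0.01 (SE 0.14). The genes were chosen by their place in HUSH silencing and with their high against low values in view, so these 3 values are a description without a test. Over all genes, 0 of 14730 (0%) passed the adjusted threshold of 0.05 between high and low intensity in edgeR's quasi-likelihood test; an unadjusted p under 0.05 was found for 1131, and DESeq2 called 49. All 9 control and high-intensity libraries (lowest 74.65 CPM) lay above all 12 low-intensity and array libraries (highest 73.59 CPM), with a narrow gap. Without TMM scaling these sets overlapped: control replicate 2 had 63.4 CPM, below low-intensity replicate 3 (67.9), actuated replicates 3 and 4 (69.2 and 75.3) and static replicate 4 (77.3). Among the deeper libraries, high and low intensity did not overlap for Tasor or Setdb1 on either scale. The split of 9 against 12 libraries was chosen after the values were seen. Of all genes fitted, with TMM scaling, 10 (0.0679%) were arranged this way and 3 (0.0204%) the opposite way. The 10 were Tasor, Atf7ip, Nsd1, Zfhx4, Mmp16, Xrn1, Prune2, Fbxl5, Zbtb37 and Pcdhb14.

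The 5 shallow libraries left out of these values held few Tasor reads: 26 in control replicate 4, 11 and 33 in high-intensity replicates 4 and 5, 45 in static replicate 3 and 0 in low-intensity replicate 6, whose whole library had 1536 counts. In CPM without TMM scaling, control replicate 4 stood at 17.8, far below the other controls, and high-intensity replicates 4 and 5 at 45.2 and 66.7. That scale divides by all counts, and their make-up differed. Control replicate 4 had 272212 of 1457250 counts in protein-coding genes, beside 1793435 of 2273487 in control replicate 5. The part of this in its low value was not tested. On that scale control replicate 4 and high-intensity replicate 4 lay below the lowest deeper control (63.4 CPM), and high-intensity replicate 5 lay above it. High-intensity replicate 4 also lay below all deeper low-intensity libraries (lowest 49.0 CPM), and high-intensity replicate 5 below low-intensity replicate 3 (67.9 CPM). On that scale, with these shallow libraries, high and low intensity overlapped for Tasor. Protein-coding genes held 344672 of 495044 counts in high-intensity replicate 5 and 2459981 of 2870691 in low-intensity replicate 3. The order of the shallow libraries per protein-coding count was not computed. With all 26 libraries in the fit, the high against low difference was 0.65. Over 2466 bases (4.51% of its length), Tasor overlaps Ccdc66 on the opposite strand, and whether counting used the strand is not stated. Ccdc66 had a mean of 26.3 CPM in controls, 32.7 at high and 25.5 at low intensity, 19.8 on the actuated and 20.9 on the static array; its part in the Tasor values was not tested.

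**Figure D2:**
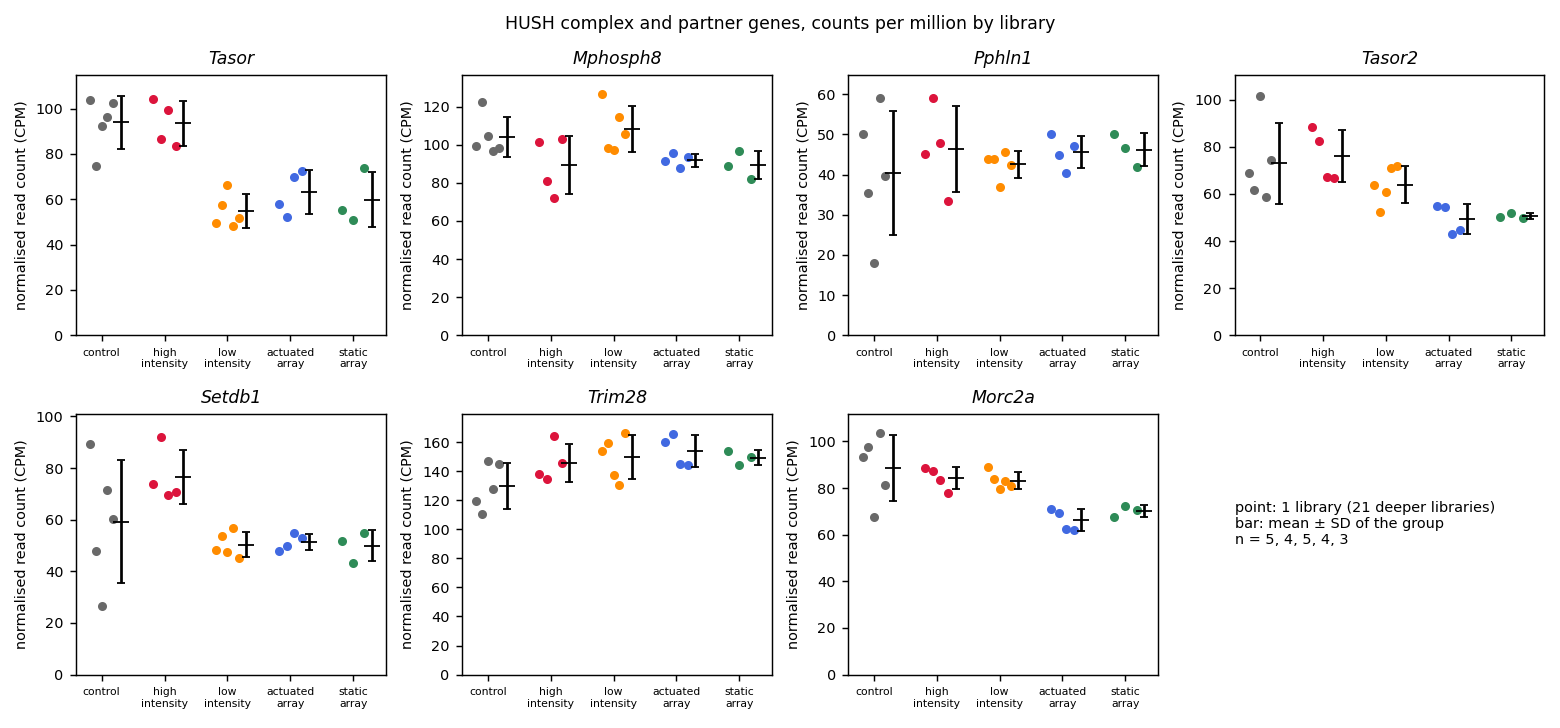
Normalised read count (CPM, axes from 0) of the 7 genes in each deeper library, with the mean ± SD of each group beside the points (n = 5, 4, 5, 4 and 3). With TMM scaling the Tasor points split into a high set (control and high intensity) and a low set (low intensity and both arrays), and the high-intensity Setdb1 points lie above the low-intensity ones.

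The partners that bind Tasor in the core complex did not share its arrangement. Mphosph8, the chromodomain reader, was the only one of the 7 with its highest mean at low intensity (108 ± 12.1 CPM, SD, n = 5) and its lowest means in the static array and high-intensity groups (89.2 ± 7.36, n = 3, and 89.4 ± 15.4, n = 4). Its high-intensity libraries, at 101.6, 81.1, 72.0 and 103.0 CPM, overlapped the low-intensity ones, at 97.4 to 126.4 CPM, and the difference was -0.27 on the log2 scale (SE 0.12). Pphln1, the RNA-binding subunit, had group means between 40.4 and 46.4 CPM. Its controls were spread over 18.1 to 59.0 CPM, while the low-intensity libraries kept to 36.8 to 45.5 CPM, and high against low was 0.12 (SE 0.22).

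Ratios of counts within a library do not depend on the scaling between libraries. The ratio of Tasor to Mphosph8 counts was 0.915 ± 0.183 in controls, 1.07 ± 0.235 at high intensity and 0.514 ± 0.12 at low intensity (SD, n = 5, 4 and 5). High-intensity ratios ran from 0.81 to 1.38 and low-intensity ratios from 0.392 to 0.682, without overlap. Both genes were chosen with their high against low values in view, so this separation is a description without a test. How many other gene pairs separate this way was not counted. The shallow high-intensity replicate 4, left out here, had 11 Tasor and 24 Mphosph8 counts, a ratio within the low-intensity range. The array groups lay between, at 0.687 ± 0.119 (actuated, n = 4) and 0.681 ± 0.192 (static, n = 3). The ratio is of counts, so it compares libraries and not the abundance of the 2 transcripts. Pphln1 to Mphosph8 was 0.541 ± 0.189 at high and 0.394 ± 0.0356 at low intensity, and the groups overlapped.

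**Figure D3:**
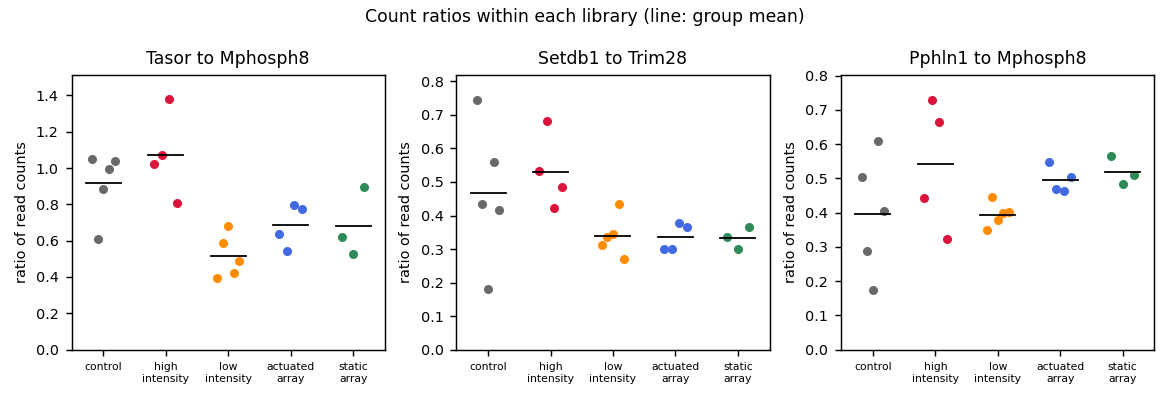
Ratios of read counts within each deeper library (axes from 0; points are libraries and lines group means). Tasor to Mphosph8 separates high (0.81 to 1.38) from low intensity (0.392 to 0.682), and Setdb1 to Trim28 spreads widely in controls (0.181 to 0.746).

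Tasor2, the paralog of Tasor, did not divide the libraries as Tasor did. Its mean was 73.0 ± 17.1 CPM in controls and 76.1 ± 11.0 at high, 63.9 ± 7.93 at low intensity, and its high against low difference was 0.26 (SE 0.15) with overlapping groups. Its control spread came largely from replicate 3, at 101.5 CPM beside 58.5 to 74.5 in the other 4. Both array groups were low, at 49.3 ± 6.27 CPM (actuated, n = 4) and 50.6 ± 1.18 CPM (static, n = 3). The ratio of Tasor to Tasor2 counts was 1.33 ± 0.286 in controls and 1.31 ± 0.358 on the actuated array, beside 0.874 ± 0.207 at low intensity, with ranges that overlapped.

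Setdb1, the methyltransferase, was the other gene whose intensity groups did not overlap. High-intensity replicates 1, 2, 3 and 6 had 73.7, 92.0, 69.5 and 70.8 CPM (76.5 ± 10.5, SD, n = 4), and low-intensity replicates 1 to 5 had 48.1, 53.6, 47.4, 56.9 and 45.2 CPM (50.2 ± 4.83, SD, n = 5). The difference was 0.61 on the log2 scale (SE 0.21), given as a description for the reason above. Unlike Tasor, its controls spanned both groups, at 89.4, 48.0, 26.5, 71.6 and 60.3 CPM for replicates 1, 2, 3, 5 and 6 (59.2 ± 23.8, SD, n = 5). The array libraries stood near low intensity, at 51.4 ± 3.09 CPM (actuated) and 49.9 ± 5.96 CPM (static). Of the 7 genes, 2 were higher at high than at low intensity without overlap and 0 were lower, beside 1.28% and 1.35% of all genes fitted. Control replicate 3 had the lowest Setdb1, Pphln1 and Morc2a of the 5 controls and the highest Tasor2 and Trim28.

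Trim28, the co-repressor, varied least of the 7 genes between libraries, from 110.7 to 166.7 CPM. Its means were 130 ± 15.8 CPM in controls, 146 ± 13.1 at high and 150 ± 15.1 at low intensity, 154 ± 10.9 on the actuated and 149.5 ± 5.05 on the static array. The ratio of Setdb1 to Trim28 counts was 0.53 ± 0.11 at high and 0.34 ± 0.0601 at low intensity, with overlapping ranges (0.423 to 0.682 and 0.271 to 0.435). Morc2a, the ATPase, had the same level at both intensities, 84.3 ± 4.73 CPM at high and 83.2 ± 3.71 at low, a difference of 0.02 (SE 0.12). All 7 array libraries (61.9 to 72.3 CPM) lay below all 9 libraries of the intensity groups (78.0 to 89.1 CPM), while the controls, at 67.7 to 103.4 CPM, overlapped both. That arrangement, named after the values were seen, was found in 0.53% of all genes, with 0.754% arranged the opposite way, and it held for Morc2a without TMM scaling. Morc2b, its paralog, had 0 to 15 counts per deeper library.

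Actuation of the array was tested first, because the choice of the genes did not use it. None of the 7 genes passed the test between actuated and static arrays, with log2 differences from -0.08 (Morc2a) to 0.07 (Tasor) and an adjusted p of 1 for each in edgeR. The 95% interval was -0.25 to 0.40 for Tasor, -0.35 to 0.18 for Morc2a and -0.42 to 0.51 for Setdb1. Of all genes, 0 of 14730 (0%) were called; unadjusted p was under 0.05 for 56 genes, and DESeq2 called 5. In simulated data of this design, 87% of genes with a 4-fold and 45% with a 2-fold change were recovered. The changed genes were drawn from those with a mean of at least 5 CPM, and all others had the same mean in every group. These rates therefore do not cover genes of lower level.

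The mean of both intensity groups was tested against the controls, which does not use the difference between them. Tasor had a log2 difference of -0.39 (SE 0.12, 0.762-fold, unadjusted p 0.00298 in edgeR), and missed the threshold at an adjusted p of 0.0824. With TMM scaling, all 5 low-intensity libraries and 0 of 4 high-intensity libraries lay below the lowest control. Leaving out low-intensity replicate 3 brought the adjusted p to 0.0472, and DESeq2 gave 0.0492, whereas the other 20 libraries left out in turn gave 0.0587 to 0.138. The other 6 genes had log2 differences from -0.08 (Morc2a) to 0.18 (Trim28, SE 0.09, adjusted p 0.291 in edgeR), and none was called. Over all genes, 1.66% were called, 169 higher (1.15%) and 75 lower (0.509%).

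**Figure D4:**
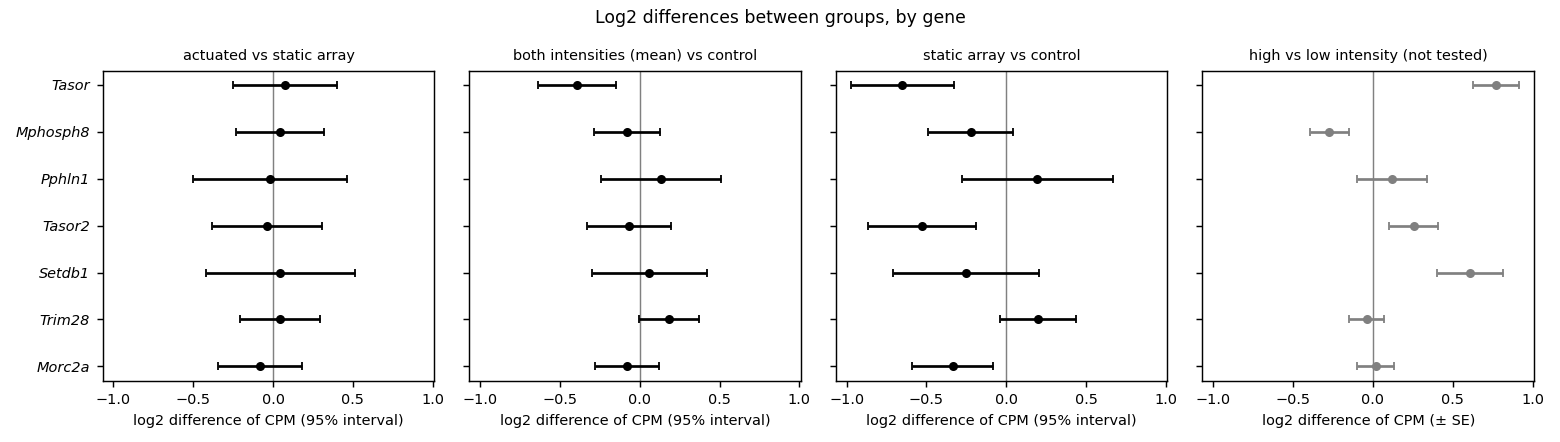
Log2 differences of CPM of the 7 genes, with 95% intervals in the 3 tested comparisons and ± SE in the untested high against low intensity (grey). Actuation differences lie within -0.08 to 0.07, and Tasor has the lowest value in both comparisons with the control.

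The static array was tested against the biochemical control as a comparison across the arms of the study; the array, the arm, the depth and any processing that went with them cannot be told apart in it. Tasor fell by 0.65 on the log2 scale (SE 0.16, 0.637-fold, adjusted p 0.0477 in edgeR), and all 3 static libraries lay below all 5 controls with TMM scaling. The adjusted p rose past the threshold, up to 0.332, when any of 14 libraries was left out: control replicates 1, 3, 5 and 6, low-intensity replicates 2 and 4, high-intensity replicates 1 and 6, actuated replicates 1, 3 and 4, and static replicates 1, 2 and 4. The log2 difference itself stayed between -0.81 and -0.53. Over all genes, 0.713% were called in this comparison, 44 higher (0.299%) and 61 lower (0.414%). Of the 7 genes, Tasor was the only one called. It was also called by DESeq2 (adjusted p 0.00419) and limma voom (0.00489). The call was lost with all 26 libraries (adjusted p 1), with only the static and control libraries fitted (0.168) and without a filter (0.110). Over 10 other settings the call held in 3 and was lost in 7, with log2 differences from -0.80 to -0.05.

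Against the controls, the static array had log2 differences of -0.53 for Tasor2 (SE 0.16, adjusted p 0.143 in edgeR), -0.34 for Morc2a (SE 0.12, adjusted p 0.221) and -0.22 for Mphosph8 (SE 0.13, adjusted p 0.505); none passed. DESeq2 gave Tasor2 an adjusted p of 0.0488. With TMM scaling, static libraries lay below all controls without overlap for Tasor, Tasor2 and Mphosph8, the last by 96.79 against 96.86 CPM, an arrangement found in 3.62% of all genes (4.52% lay above). Without it all 3 overlapped: the lowest control and the highest static library had 63.4 and 77.3 CPM for Tasor, 52.4 and 53.0 for Tasor2 and 91.0 and 98.8 for Mphosph8. Trim28 had a log2 difference of 0.20 (SE 0.12) and Pphln1 of 0.19 (SE 0.23), neither called. The 7 genes had a median of -0.25, beside 0.00 over all genes. This comparison and that of the intensity groups share the 5 controls.

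Atf7ip, the partner that stabilises Setdb1 in the nucleus, repeated the arrangement of Tasor at higher counts. Controls had 321.8, 281.8, 228.8, 274.7 and 248.7 CPM, and high-intensity libraries 253.5, 305.2, 218.7 and 274.7 CPM. Low-intensity libraries had 177.3, 177.9, 183.9, 216.2 and 166.7 CPM, actuated libraries 161.6, 159.6, 141.4 and 152.5 CPM and static libraries 156.9, 153.3 and 128.8 CPM. With TMM scaling, no low-intensity or array library reached the lowest control or high-intensity one; without it the sets overlapped (203 against 220.5 CPM), though static libraries stayed below all controls. Against the controls Atf7ip fell by 0.89 on the static array (SE 0.13, adjusted p 0.00164 in edgeR), and it was called with each of the 21 libraries left out in turn (adjusted p 0.00106 to 0.0289). The call was lost in 4 of 10 other settings, with log2 differences from -0.97 to -0.39 over the 10. Among them, the fit of all 26 libraries gave -0.94 and an adjusted p of 0.965. Both intensity groups averaged gave -0.30 (SE 0.10, adjusted p 0.0959).

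Of 18 silencing partners and readers listed, 17 were fitted, and 2 were called lower on the static array than in controls, Atf7ip and Zfp638, beside 0.414% of all genes; 0 were called higher, beside 0.299%. Zfp638, a zinc finger protein that brings HUSH to unintegrated retroviral DNA, had 229 ± 21.9 CPM in controls, 226 ± 14.4 at high and 209 ± 17.6 at low intensity, 171 ± 3.52 on the actuated and 163 ± 6.92 on the static array. It fell by 0.49 on the static array (SE 0.10, adjusted p 0.0221), and without static replicate 1, 2 or 4 the adjusted p was 0.0762, 0.171 and 0.193. The call was also lost with all 26 libraries (adjusted p 1), without a filter (0.244), with only the groups compared (0.135), with the replicate block (0.0808) and on unscaled TPM. The list's median was -0.22, beside 0.00 over all genes. Neither actuation nor the averaged intensity groups had a called gene in the list, beside 0% and 1.66% of all genes. Its most abundant genes per length were Atrx, a chromatin remodeller of repeats (mean TPM 156), and the heterochromatin proteins Cbx3 (101) and Cbx5 (100). Their log2 differences, static array against control, were -0.34, -0.22 and -0.05, none called.

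Genes that write or erase H3K9 methylation, and genes of DNA methylation, gave no call in the 3 tested comparisons. The counts were 0 of 5 H3K9 methyltransferases besides Setdb1, 0 of 6 fitted H3K9 demethylases (7 listed) and 0 of 4 DNA methylation genes. Over all genes, 0% were called for actuation, 1.66% for the averaged intensity groups and 0.713% for the static array. Ehmt1 and Ehmt2, which form the dimethylating complex, had log2 differences of -0.46 (adjusted p 0.193) and 0.04 (adjusted p 0.933) between static array and control in edgeR, and Suv39h1, a trimethylating enzyme, 0.33 (adjusted p 0.847). The demethylases Kdm1a, Kdm4a and Kdm4b had 0.03, -0.12 and 0.30 in the same comparison. Uhrf1, which guides maintenance methylation after replication, had a log2 difference of 1.16 between the averaged intensity groups and control (SE 0.37, adjusted p 0.0996), with 10.8 CPM in controls, 26.4 at high and 22.1 at low intensity. Its companions Dnmt1 and Dnmt3a had 0.16 and -0.10. The summed cycling cell markers were 164 to 227 CPM in controls and 296 to 868 CPM at high, 190 to 560 at low intensity; their part in the Uhrf1 values was not tested.

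Clustered protocadherins, cell-surface recognition genes that the machinery is known to hold down, had log2 differences above 0 in 9 of 57 genes at low intensity, 21 at high intensity and 11 on the static array, each against the controls (58 listed, 57 fitted). The median log2 difference was -0.50 at low intensity, -0.13 at high intensity and -0.40 on the static array, beside -0.01 to 0.00 over all genes. Between high and low intensity, 45 of 57 were above 0, with a median of 0.36 beside 0.01 over all genes, which is a description. Of the 57 genes, 1 was called for the averaged intensity groups (beside 1.66% of all genes), 1 for the static array (beside 0.713%) and 0 between actuated and static arrays. Pcdhb14 had 29.6 ± 6.01 CPM in controls, 27.1 ± 8.49 at high and 15.8 ± 1.7 at low intensity, 14.3 ± 1.75 on the actuated and 12.9 ± 3.19 on the static array. It fell by 1.19 on the static array (SE 0.24, adjusted p 0.0159 in edgeR), and without static replicate 1 or 4 the adjusted p was 0.112 and 0.164. The call was lost in 6 of 10 other settings (adjusted p up to 1), where the log2 difference lay between -1.22 and -0.43 over the 10. Pcdhgc4 fell by 0.72 in the averaged intensity groups (SE 0.19, adjusted p 0.0467), from 37.3 ± 11.3 CPM to 17.9 ± 5.34 at high and 28.7 ± 7.89 at low intensity. That call held in 5 of the 21 fits with 1 library left out (adjusted p 0.0176 to 0.137). Those 5 left out control replicates 1 and 6, low-intensity replicates 3 and 4 and high-intensity replicate 6. Over 10 other settings the Pcdhgc4 call held in 3, and the sign was reversed in 2. There the log2 difference lay between -0.75 and 0.14.

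Of the 3 most abundant protocadherins per length, Pcdhgc3 (mean TPM 50.8) had 159 CPM in controls and 181, 182, 200 and 197 CPM in the high-intensity, low-intensity, actuated and static groups. Pcdhgc5 (mean TPM 28.3) had 11.9 CPM in controls and 24.3 at high and 23.1 at low intensity. Pcdhb2 (10.9) had 27.3, 24.3 and 18.7 CPM in the same 3 groups, and its log2 differences of -0.53 at low intensity, -0.15 at high intensity and -0.39 on the static array lay near the medians of the list. None of the 3 was called. Genes of the clusters share sequence, and how the counting divided reads between them is not stated. Germline genes, which such silencing keeps off outside the germ line, were near the limit of detection. Of 12 listed, 4 were fitted and 0 called in the 3 tested comparisons, beside at most 1.66% of all genes. Ddx4 had 3.80 to 6.79 CPM and Taf7l 0.664 to 1.50 CPM as group means. Rpl10l had 0 CPM in controls and 0.194 to 2.56 elsewhere, where 3 counts stand for 0.228 to 1.93 CPM.

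**Figure D5:**
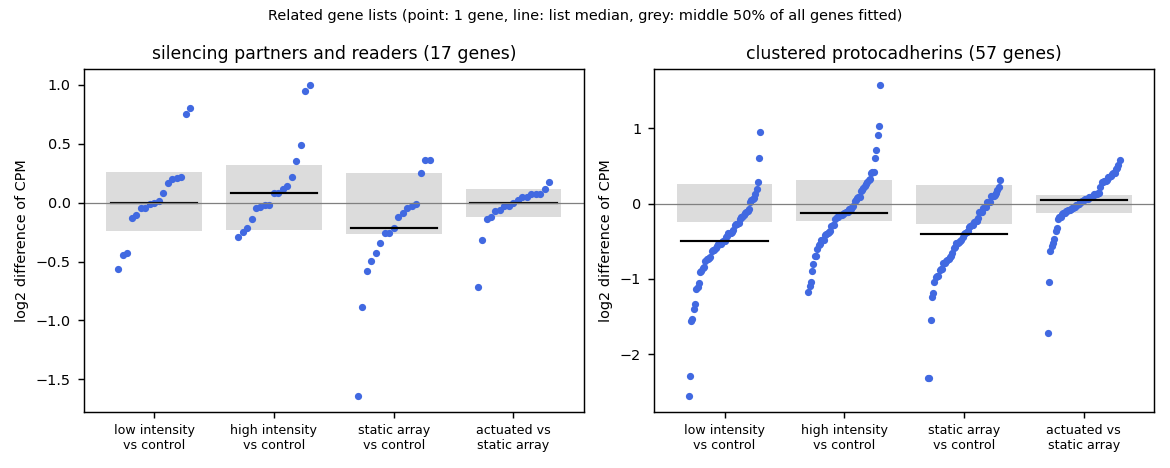
Log2 differences of CPM of the fitted genes of 2 lists in 4 comparisons; each point is a gene, black lines are list medians and grey boxes span the middle 50% of all genes fitted. The protocadherin median lies lowest at low intensity (-0.50) and on the static array (-0.40), and the lowest partner point there, Morc2b at -1.64, rests on 0 to 15 counts per library.

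Summed markers of some cell types also differed between groups. Summed fibroblast and feeder markers were 881 to 2350 CPM at high intensity, 330 to 871 in controls, 223 to 2530 at low intensity, 39.2 to 564 on the actuated and 148 to 754 on the static array. Summed motor neuron markers were 73.7 to 89.1 CPM on the static array, below all controls (105 to 162). Singly, only Slc5a7 (4.93 to 12.4 against 21.2 to 40.2 CPM) and Isl1 (1.6 to 6.92 against 7.69 to 28.1) did so. The other motor neuron markers overlapped the controls. Summed glia and progenitor markers were 3030 to 3730 CPM there, above all controls (1870 to 2650). Of these markers only Gfap lay above all controls (2040 to 2630 against 1220 to 1840 CPM), and the others overlapped them. The part of these cell types in the values of Tasor, Setdb1, Atf7ip, Zfp638 and the protocadherins was not tested.

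The genes most like Tasor over the 21 deeper libraries, by the root mean square difference of centred log2 CPM, were Nsd1 (0.253), Mmp16 (0.254), Dync2h1 (0.267), Xrn1 (0.269) and Cabin1 (0.276), beside a median of 0.522 over 11323 genes with a mean of at least 5 CPM. Xrn1, a cytoplasmic exoribonuclease, had 64.1 ± 7.95 CPM in controls, 62.4 ± 12.8 at high and 39.0 ± 7.1 at low intensity, 37.7 ± 4.04 on the actuated and 34.0 ± 3.29 on the static array. Nsd1, a histone methyltransferase of another lysine, had 437 ± 22.5, 458 ± 31.7, 342 ± 39.1, 346 ± 10.1 and 324 ± 7.66 CPM in the same order. The nearest genes to the others were Cpsf6 for Tasor2 (0.148), Sptan1 for Mphosph8 (0.113), Atp5d for Pphln1 (0.191), Mon2 for Setdb1 (0.207), Ubap2l for Morc2a (0.13) and Set for Trim28 (0.129). A gene at a constant level would lie at 0.308, 0.184, 0.339, 0.382, 0.199 and 0.149 in the same order, and at 0.385 for Tasor. Set was thus hardly nearer to Trim28 than a constant gene would be. The 7 genes themselves were left out of the search.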

How the data were processed

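The authors deposited 2 tables with a row per Ensembl mouse gene, 1 of expected counts given as whole numbers and 1 of TPM. Per the submitters' processing notes, BWA 0.7.12-r1039, bedtools 2.25.0, STAR and Salmon and the builds mm10, hg19 and GRCm39 were used, with no role given; strand use and filters are not stated. The deposited counts are unscaled, and the deposited TPM sum to 1000000 in each library.

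Counts were rounded and fitted with edgeR 4.0.16 in R 4.3.3: the 21 deeper libraries, all 5 groups in 1 model, genes kept by filterByExpr (14730), TMM scaling, the quasi-likelihood F-test, and Benjamini-Hochberg adjustment over all genes fitted, called at 0.05. Very shallow libraries were kept for an alternative fit. Alternatives were DESeq2 1.42.0, limma 3.58.1 (voom, or log2 of TPM plus 1 or 0.1), other scaling, no filter, only the groups compared, a replicate block and leaving out each library; TPM scaled by size factors, and CPM without TMM scaling for groups that do not overlap, were added after seeing the data. The test was checked on simulated counts.

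The 7 genes, the related lists, the markers and the rule for naming genes were chosen with earlier results of these data known. Named were all 7 genes, list genes that were called, the 3 of highest mean TPM per list, and the genes nearest to each of the 7. Genes named for sharing the arrangement of Tasor were chosen after their values were seen. Nothing states that replicates came from separate cultures, so p-values measure only the spread between these libraries, which may be technical. All 325 library pairs differed by more than sampling noise (chi-square per degree of freedom 4.74 to 646). Limits of detection (3 counts) cover counting error only. Positions and overlaps of genes come from GENCODE M21 (GRCm38), where Tasor and Tasor2 are named Fam208a and Fam208b, matched by Ensembl identifier; promoters come from RefSeq (GRCm38.p6), matched for 7 of 7 genes by symbol.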

Additional observations from a re-analysis of the deposited data

How the results depend on the processing

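Outside raw TPM, the log2 differences of the 5 called genes named, Tasor, Atf7ip, Zfp638 and Pcdhb14 on the static array and Pcdhgc4 in the averaged intensity groups, kept their sign in every alternative run, while calls moved with the number of libraries and the tool; the cause was not tested. With all 26 libraries, 4 genes were called for the averaged intensity groups against control and 2 for static array against control, Tasor stood at -0.54 in the latter, and small actuation differences changed sign (Pphln1 0.031, Setdb1 -0.022, Morc2a 0.085). Without a filter, 40 genes were called for actuation, 873 for the intensity groups, 459 for the static array (Tasor -0.57) and 126 between intensities. DESeq2 called 5, 768, 381 and 49, with Tasor at -0.39 in the intensity groups and Tasor2 at -0.56 on the static array, both past the threshold. limma voom called 0 genes for the intensity groups, and fitting only the groups compared called 0 there and 42 for the static array (Tasor -0.66); edgeR found 2641 and 1850 at an unadjusted p under 0.05 in these 2 comparisons.

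On raw log2(TPM + 1), whose median over all genes shifted by 0.59 for the intensity groups and 0.52 for the static array, 5568 and 1061 genes were called, of which 5545 and 1058 were higher. There the intensity groups had Tasor at 0.32, Tasor2 0.37, Mphosph8 0.50, Pphln1 0.82, Setdb1 0.74, Morc2a 0.70, Trim28 1.01 and Pcdhgc4 0.12, and the static array had Tasor -0.049, Mphosph8 0.20, Setdb1 0.38, Morc2a 0.43 and Trim28 0.93; Pphln1, Setdb1, Morc2a and Trim28 passed the threshold in the former and Trim28 in the latter. With 0.1 in place of 1, the counts were 5695 and 1124 (1 between intensities), and the values were 0.34, 0.40, 0.51, 0.85, 0.81, 0.74, 1.03 and 0.14, then -0.052, 0.21, 0.42, 0.46 and 0.94. For actuation Pphln1 was 0.078 and 0.079 and Morc2a 0.049 and 0.047 under the 2 settings. TPM scaled by size factors, added after seeing the data, called 47 and 25 genes, with Morc2a at 0.079 in the intensity groups and Tasor at -0.59 on the static array.

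Same-numbered libraries of different groups had a median correlation of deviations of -0.0026, beside 0.0044 for other pairs. It was above 0.1 in 3 of 31 same-numbered pairs and in 9 of 144 others. Of 21 libraries, 7 correlated best with a library of their own number. The share expected by chance was not computed, so these values do not settle whether replicate numbers pair the libraries. With the replicate block, 37 genes were called for the intensity groups and 36 for the static array, Tasor was at -0.68 there (adjusted p 0.109) and Pphln1 at 0.075 for actuation. Leaving out 1 library at a time gave 49 to 517 called genes for the intensity groups (49 without control replicate 3, 517 without high-intensity replicate 6), 18 to 141 for the static array and 0 to 3 between intensities. Tasor ranged from -0.46 to -0.35 in the intensity groups, -0.81 to -0.53 on the static array and -0.033 to 0.25 for actuation, where Tasor2 ranged from -0.095 to 0.0195, Pphln1 from -0.086 to 0.044, Setdb1 from -0.049 to 0.12 and Mphosph8 from -0.012 to 0.11. In the intensity groups Setdb1 ranged from -0.12 to 0.26, Tasor2 from -0.13 to 0.079 and Pphln1 from -0.051 to 0.30. Between high and low intensity, Tasor stayed between 0.58 and 0.86 and Setdb1 between 0.49 and 0.76 over all alternatives run.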

Other observations

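In high-intensity replicate 4, a library of 243510 counts that was left out of the comparisons, Setdb1 had 39 counts and a deposited TPM of 282, while Tasor had 11 counts and 5.02 TPM. In the 21 deeper libraries Setdb1 had at most 22.7 TPM.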
